A study of Mus musculus with 4 samples.

Results

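The genes of the TGF-β and BMP family encode secreted dimers, the receptors that bind them and the SMAD proteins that carry the signal into the nucleus. Ligands assemble type II and type I receptor kinases, which phosphorylate SMAD2 and SMAD3 in the TGF-β and activin branch or SMAD1, SMAD5 and SMAD9 in the BMP branch. SMAD4 is the shared partner, and SMAD6 and SMAD7 are the inhibitory members. In adipose tissue the family is known for steering progenitors toward or away from fat cells and for tuning thermogenesis.

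Members were the protein-coding genes of GENCODE vM21 whose symbol starts with Bmp, Bmpr, Gdf, Tgfb, Tgfbr, Smad, Acvr or Inhb and ends in the member's number or letter. This gave 47 of 21951 genes, of which 45 had at least 1 accessible region, called a peak, out of 17196 genes with a peak. Bmp10 and Bmp15 had none. Gdf1, Gdf5, Tgfb3 and Acvr1 share at least 1 peak with another gene, Acvr1 7 of its 40. The members held 468 of 189598 peaks, counted from 2000 bases upstream of a gene to its end. The family splits into 11 genes named Bmp, 10 named Gdf, 3 TGF-β ligands, 4 inhibin beta subunits, 11 receptors and 8 SMADs.

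Accessibility was measured by single-nucleus ATAC-seq, which marks open chromatin, in inguinal white adipose tissue of male C57BL/6J mice aged 8 weeks. All mice were housed at 22 °C and then kept untreated (day0RT), moved to 6.5 °C for 1, 3 or 7 days (day1C, day3C, day7C), or given CL-316,243 at 1 mg/kg, a selective agonist of the β3-adrenergic receptor, for 1, 3 or 7 days (day1CL, day3CL, day7CL). Each of the 7 groups had 3 mice. The 32552 nuclei carried 12 annotated clusters, among them 5935 white and 1069 beige adipocyte nuclei. A gene's count adds up, over its peaks, the nuclei in which the peak was open, per mouse and cluster. Gene levels are this count scaled to a library sum of 1e6 over all genes (CPM). Levels of single peaks are scaled to a sum of 1e6 over all peaks, so peak and gene CPM are not on the same scale.

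Libraries differed in depth. Mice held 1111 to 2021 nuclei, and the adipocyte sums on genes ran from 48868 counts in the first day1CL mouse, with 29 adipocyte nuclei, to 3354348 in a day3C mouse. Barcode sequences recurred between mice in 4218 cases. The snATAC-seq batches are described as independent, but no label used here names the batch of a mouse, so the part of batch in the differences was not tested. The adipocyte marker list (6 genes) summed to 1829 CPM in white and 1717 CPM in beige nuclei. In the other 10 clusters it summed to 198 to 579 CPM. The beige list (5 genes) summed to 460 CPM in beige and 225 CPM in white nuclei, and to 306 CPM in the nuclei annotated VSMC. Names of 2 other clusters went against their markers. The cluster annotated VSMC summed to 1110 CPM over 6 skeletal muscle genes and to 162 CPM over 7 smooth muscle and pericyte genes, and APC2 summed to 786 CPM over those 7 genes and to 438 CPM over 8 progenitor genes, where APC1 had 1317 CPM.

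The bases of 3 intronic peaks that carried differences described below are shown first. Each is the central 300 bases of the peak on the plus strand of mm10 (RefSeq GRCm38.p6). The stretches are chr2:58457087-58457386 in Acvr1, chr9:116136512-116136811 in Tgfbr2 and chr9:63972802-63973101 in Smad6. Capitals mark matches to the searched motifs.

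Acvr1: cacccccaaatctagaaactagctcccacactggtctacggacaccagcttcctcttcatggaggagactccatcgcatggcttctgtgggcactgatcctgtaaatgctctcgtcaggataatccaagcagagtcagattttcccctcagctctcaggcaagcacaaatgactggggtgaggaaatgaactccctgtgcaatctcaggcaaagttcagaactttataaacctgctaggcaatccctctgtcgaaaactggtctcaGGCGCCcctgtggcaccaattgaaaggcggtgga
Tgfbr2: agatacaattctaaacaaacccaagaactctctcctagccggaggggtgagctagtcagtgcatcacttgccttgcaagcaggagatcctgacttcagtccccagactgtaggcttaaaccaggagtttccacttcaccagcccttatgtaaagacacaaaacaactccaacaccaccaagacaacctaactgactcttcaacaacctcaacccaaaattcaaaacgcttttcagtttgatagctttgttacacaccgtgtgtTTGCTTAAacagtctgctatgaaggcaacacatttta
Smad6: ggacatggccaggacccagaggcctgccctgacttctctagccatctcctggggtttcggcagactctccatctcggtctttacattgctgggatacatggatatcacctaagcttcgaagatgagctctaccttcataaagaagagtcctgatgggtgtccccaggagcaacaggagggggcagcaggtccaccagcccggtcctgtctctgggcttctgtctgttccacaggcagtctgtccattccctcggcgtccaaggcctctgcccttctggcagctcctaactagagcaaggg

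The 8 motifs were searched on both strands. The GC-rich SMAD element GGCGCC lay in the Acvr1 stretch (4.11% of the same windows of all 189598 peaks) and the C/EBP element TTGCNNAA in the Tgfbr2 stretch (18.5%). The other motifs were the estrogen-related receptor element TCAAGGTCA (0.632%), the AP-1 element TGANTCA (12.3%), the glucocorticoid and androgen receptor element (1.02%), CCCNNGGG of EBF (11.2%), the SMAD palindrome GTCTAGAC (0.292%) and the PPAR response element (0.0997%). The Smad6 stretch matched none of the 8.

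The first comparison asked which members differ between beige and white adipocytes, the thermogenic and the lipid-storing fat cells. Of 31 members with enough counts, 3 were more and 10 were less accessible in beige nuclei (edgeR quasi-likelihood test, Benjamini-Hochberg adjusted p under 0.05), in 19 beige and 21 white libraries of at least 10 nuclei. That was 41.9% of the members tested, beside 28.8% of all 12770 genes. Called higher were 13.6% of all genes and called lower 15.2%. The median log2 fold change was -0.042 over the members and 0.0049 over all genes. White and beige nuclei had been parted by clustering these same counts, so the p-values do not stand apart from the choice of nuclei. The fit took cluster and treatment group as terms, so the white and beige libraries of a mouse were not paired. Counts on genes ran from 16099 to 556248 in beige and from 34469 to 2862029 in white libraries. A gene with few counts can thus read 0 in a shallow library. The part of depth in the counts of mice given below was not tested. The 8 progenitor genes summed to 445.0 to 551 CPM in white and 529 to 744 CPM in beige libraries, with none of the 8 at 0. The 8 genes did not move together. Ebf2 was higher in the beige nuclei of 19 of 19 mice, Pdgfra of 12 and Pi16 of 11. Dpp4 was higher in 3, Col1a1 in 5 and Dcn, Cd34 and Ly6a in 6 each. Their part in the differences was not tested.

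Among the ligands, Bmp8b stood out in beige nuclei. It encodes a BMP known for raising the thermogenic response of brown fat, and it had 1 peak, in an intron. Its level ran from 0 to 46.2 CPM with a median of 31.1 CPM in beige nuclei and from 0 to 29.0 CPM with a median of 3.74 CPM in white nuclei. It was higher in the beige than in the white nuclei of 17 of 19 mice, and the highest white value came from the shallow first day1CL mouse. The log2 fold change was 1.93 ± 0.19 (SE, adjusted p = 1.32e-15 by edgeR), on 102 counts in beige and 86 in white nuclei. Bmp8a, a closely related copy, gave 0.35 (adjusted p = 0.286 by edgeR). Whether reads that fit both genes were lost to the mapping filter was not tested.

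Inhbb, which encodes the beta subunit of activin B, went the other way. It ran from 29.0 to 61.5 CPM in white nuclei with a median of 45.7 CPM, and from 0 to 45.2 CPM in beige nuclei with a median of 19.4 CPM. It was lower in the beige nuclei of 18 of 19 mice, with a log2 fold change of -0.99 ± 0.14 (SE, adjusted p = 5.08e-09 by edgeR). The peak over its start (chr1:119421629-119422513) gave -0.85 ± 0.19 (SE, adjusted p = 9.5e-05 by edgeR).

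The other ligand genes showed smaller differences. Bmp3, which encodes an atypical BMP that opposes its relatives, had medians of 58.25 CPM in white and 31.7 CPM in beige nuclei and fell by 0.58 on the log2 scale (SE 0.13, adjusted p = 0.00011 by edgeR), lower in 15 of 19 mice. Bmp2, an inducer of bone and fat differentiation, gave -0.38 ± 0.15 (SE, adjusted p = 0.042 by edgeR), lower in 14 of 19 mice, and Tgfb3 gave -0.32, lower in 15. Gdf15, a stress-induced cytokine, was higher by 0.40 ± 0.13 (SE, adjusted p = 0.0149 by edgeR), in 14 of 19 mice. Bmp2 lost its call in 12 of the 21 refits that each left out 1 mouse and Tgfb3 in 8.

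**Figure D1:**
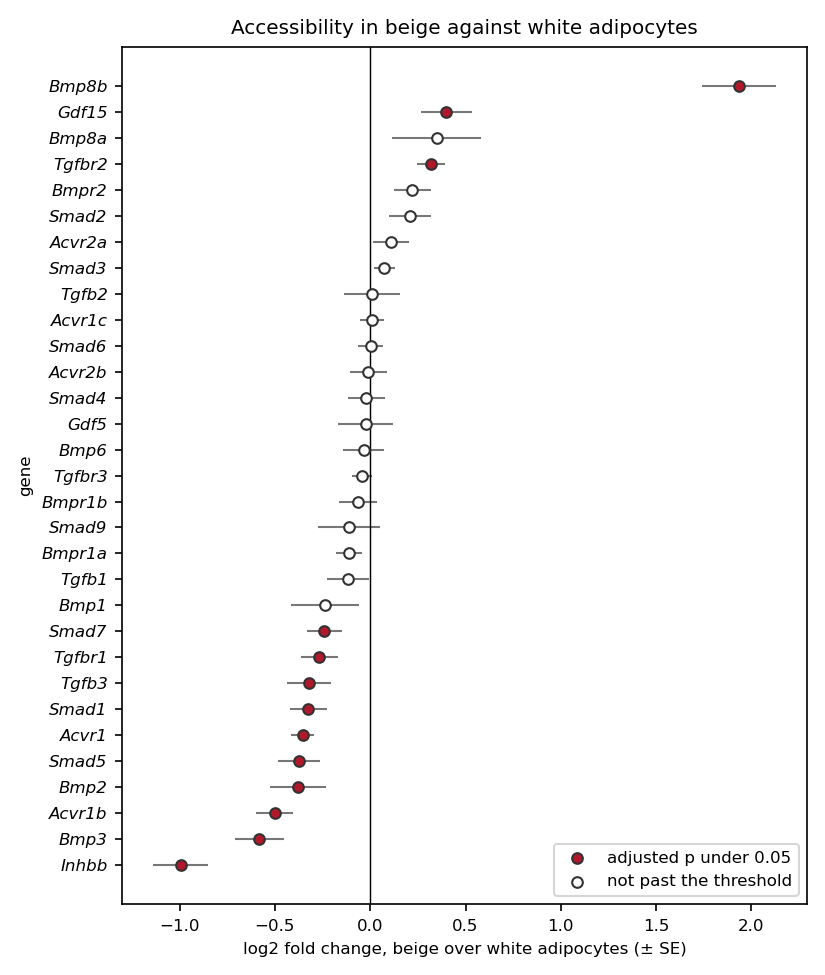
The horizontal axis is the log2 fold change of beige over white adipocytes with its SE, 1 row for each of the 31 members tested. Filled points mark the 13 members past the threshold, with Bmp8b at 1.93 and Inhbb at -0.99 at the ends.

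Among the receptors, Tgfbr2 was higher and 3 type I receptors were lower in beige nuclei. Tgfbr2, the type II receptor for TGF-β, had a median of 203.5 CPM (88.1 to 305.0) in beige and 161.8 CPM (58.0 to 230.2) in white nuclei, a log2 fold change of 0.32 ± 0.07 (SE, adjusted p = 0.000255 by edgeR), and was higher in 16 of 19 mice. Acvr1b, an activin receptor, had a median of 83.05 CPM over beige and 116.0 CPM over white libraries, with a log2 fold change of -0.50 ± 0.10 (SE, adjusted p = 1.04e-05 by edgeR), lower in 17 of 19 mice. The ranges of both genes overlapped between the cell types.

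Acvr1, a type I receptor for BMPs and activins, was lower in the beige nuclei of all 19 mice. Its median was 349.3 CPM (241.1 to 467.4) in beige and 459.2 CPM (386.8 to 591.0) in white nuclei, with a log2 fold change of -0.35 ± 0.06 (SE, adjusted p = 3.33e-07 by edgeR). Tgfbr1, the type I receptor of TGF-β, was lower by -0.27 (adjusted p = 0.0264 by edgeR), in 17 of 19 mice. The remaining receptors tested, among them Bmpr1a, Bmpr1b, Bmpr2 and Tgfbr3, did not pass the threshold, with log2 values between -0.11 and 0.22.

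Of the SMADs, 3 were called and all were lower in beige nuclei. Smad5, a SMAD of the BMP branch, had medians of 59.6 CPM in white and 52.9 CPM in beige nuclei and a log2 fold change of -0.37 ± 0.11 (SE, adjusted p = 0.00517 by edgeR). Smad1 of the same branch gave -0.33, and Smad7, the inhibitor best known in the TGF-β branch, -0.24. They were lower in the beige nuclei in 14 of 19 mice for Smad5, 11 for Smad1 and 14 for Smad7. Smad6 gave 0.0017 ± 0.06 (SE, adjusted p = 0.991 by edgeR) and Smad3 0.07 ± 0.05 (SE, adjusted p = 0.334 by edgeR). Without the first day3C mouse, Smad1, Smad7, Bmp2, Tgfb3 and Tgfbr1 lost their calls and 8 members were called. Over all 21 such refits Smad7 lost its call in 11 and Tgfbr1 in 5, and DESeq2 called neither Smad7 (adjusted p = 0.0528) nor Tgfb3 (0.053).

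Counting only peaks near gene starts left 5 members called between beige and white nuclei. These sums hold fewer counts per gene, and the share of all genes called with them is not given here. Among the receptors Acvr1 gave -0.11 (adjusted p = 0.544 by edgeR), Acvr1b -0.18 (0.417), Tgfbr1 -0.24 (0.176) and Tgfbr2 0.036 (0.927). Among the SMADs Smad1 gave -0.10 (adjusted p = 0.716 by edgeR), Smad5 -0.14 (0.608) and Smad7 0.0071 (0.984), and the ligand gene Gdf15 gave 0.36 (0.0512).

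**Figure D2:**
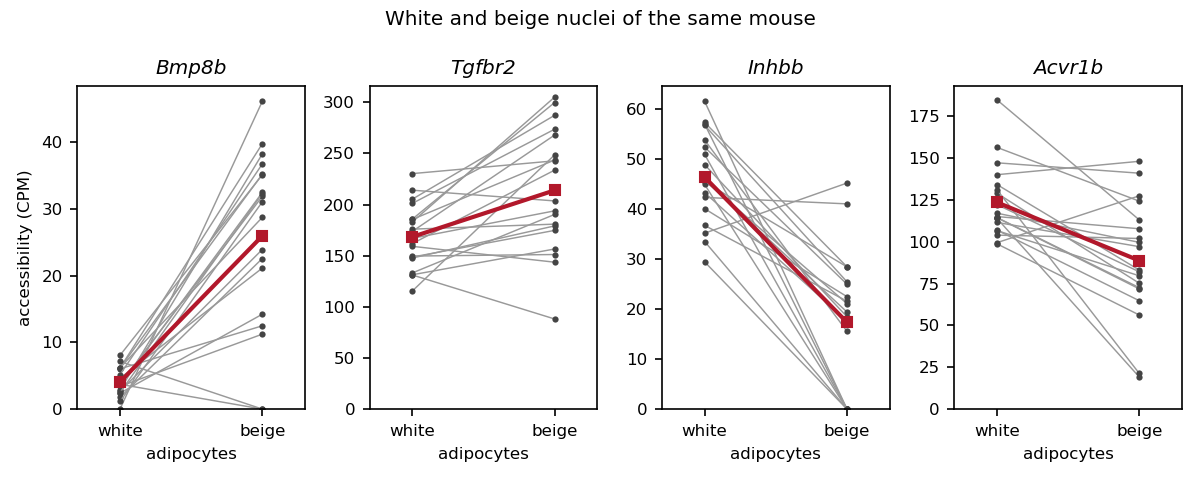
Each grey line joins the level in CPM in white and beige nuclei of 1 of 19 mice, for 4 members, and the red squares are the means over these mice. Most lines rise for Bmp8b (17 of 19) and Tgfbr2 (16), and most fall for Inhbb (18) and Acvr1b (17).

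The second comparison asked which members change in all adipocytes with cold or CL. White and beige nuclei of a mouse were summed, and 37 members had enough counts. Against day0RT the members called were 1 at day1C (0.34% of all 14429 genes called), 1 at day3C (1.67%), 3 at day7C (5.09%), 1 at day1CL (2.61%), 2 at day3CL (4.77%) and 3 at day7CL (7.81%). These counts came from 4 genes, Smad6, Smad3, Tgfbr2 and Acvr1b, and the 6 comparisons share the 3 day0RT mice. Median log2 fold changes of the members lay between -0.0049 and 0.089. The beige share of adipocyte nuclei was 7.69 to 12.2% at day0RT and 26.1 to 32.5% at day7C. Fits on white nuclei alone, which hold fewer counts, are given below for the called genes. The part of the beige share itself was not tested.

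Smad6, an inhibitor best known in the BMP branch, was called lower in 4 of the 6 treated groups. The day0RT mice had 431, 478 and 416 CPM. The day1C mice had 390, 307 and 314 CPM, the day3C mice 324, 289 and 335 CPM, and the day7C mice 312, 300 and 293 CPM. With CL the values were 266, 315 and 301 CPM at day 1, 326, 273 and 311 CPM at day 3, and 325, 335 and 451 CPM at day 7. All mice of 5 treated groups lay under all day0RT mice, and the third day7CL mouse did not.

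The log2 fold change of Smad6 was -0.46 ± 0.11 at day3C (SE, adjusted p = 0.0122 by edgeR), -0.53 ± 0.11 at day7C (adjusted p = 0.000864), -0.54 ± 0.13 at day1CL (adjusted p = 0.00749) and -0.53 ± 0.11 at day3CL (adjusted p = 0.000674). Day1C gave -0.34 (adjusted p = 0.193 by edgeR) and day7CL -0.26 (adjusted p = 0.119), and without the third day7CL mouse day7CL gave -0.40 (adjusted p = 0.0106). In white nuclei alone the values were -0.39 (adjusted p = 0.0613), -0.49 (0.0134), -0.48 (0.0454) and -0.51 (0.00224) at day3C, day7C, day1CL and day3CL. The day1CL call was lost without the third day1CL mouse (-0.56, adjusted p = 0.383 by edgeR), and the day3C call without the second day0RT mouse or without the first or second day3C mouse.

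Tgfbr2 was called higher in 3 of the 6 treated groups. The day0RT mice had 135, 123 and 128 CPM, and the day1C mice 139, 186 and 151 CPM. The day3C mice had 172, 199 and 176 CPM and the day7C mice 229, 229 and 203 CPM. With CL the mice had 123, 163 and 150 CPM at day 1, 212, 208 and 168 CPM at day 3, and 233, 153 and 155 CPM at day 7. All treated mice lay above the day0RT mice except the first day1CL mouse.

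The log2 fold change of Tgfbr2 was 0.75 ± 0.14 at day7C (SE, adjusted p = 0.000222 by edgeR), 0.59 ± 0.14 at day3CL (adjusted p = 0.00447) and 0.57 ± 0.14 at day7CL (adjusted p = 0.0052). At day3C it was 0.46 (adjusted p = 0.07). In white nuclei alone, where the day0RT mice had 131, 115 and 131 CPM and the day7C mice 186, 205 and 185 CPM, the values were 0.58, 0.58 and 0.59 at day7C, day3CL and day7CL, each still called. Without the first day7CL mouse, day7CL gave 0.26 (adjusted p = 0.458 by edgeR), and the day3CL and day7CL calls were also lost without the third day0RT mouse (adjusted p = 0.0638 and 0.0563) and the day3CL call without the second day3CL mouse (0.0887).

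Smad3, which carries TGF-β and activin signals, was called lower in 3 of the 6 treated groups. Its level was 454, 421 and 490 CPM at day0RT, and the 18 treated mice lay between 335 and 421 CPM, all under the lowest day0RT mouse, though the second day1CL mouse (421.3 CPM) and the second day0RT mouse (421.4 CPM) were nearly level. The log2 fold change was -0.41 ± 0.10 at day1C (SE, adjusted p = 0.0433 by edgeR), -0.33 ± 0.10 at day7C (adjusted p = 0.0318) and -0.28 ± 0.10 at day7CL (adjusted p = 0.0498). These calls were close to the threshold and were lost in 11, 5 and 15 of the 21 refits that each left out 1 mouse. In white nuclei alone Smad3 gave -0.43 (adjusted p = 0.0604 by edgeR) at day1C, -0.32 (0.101) at day7C and -0.32 (0.0446) at day7CL. Acvr1b was called at day7CL, with 99.0, 109 and 88.3 CPM against 114, 155 and 147 CPM at day0RT, a log2 fold change of -0.46 ± 0.15 (SE, adjusted p = 0.0357 by edgeR) that 4 of these refits, DESeq2 (adjusted p = 0.118) and the fit on white nuclei (0.116) lost.

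**Figure D3:**
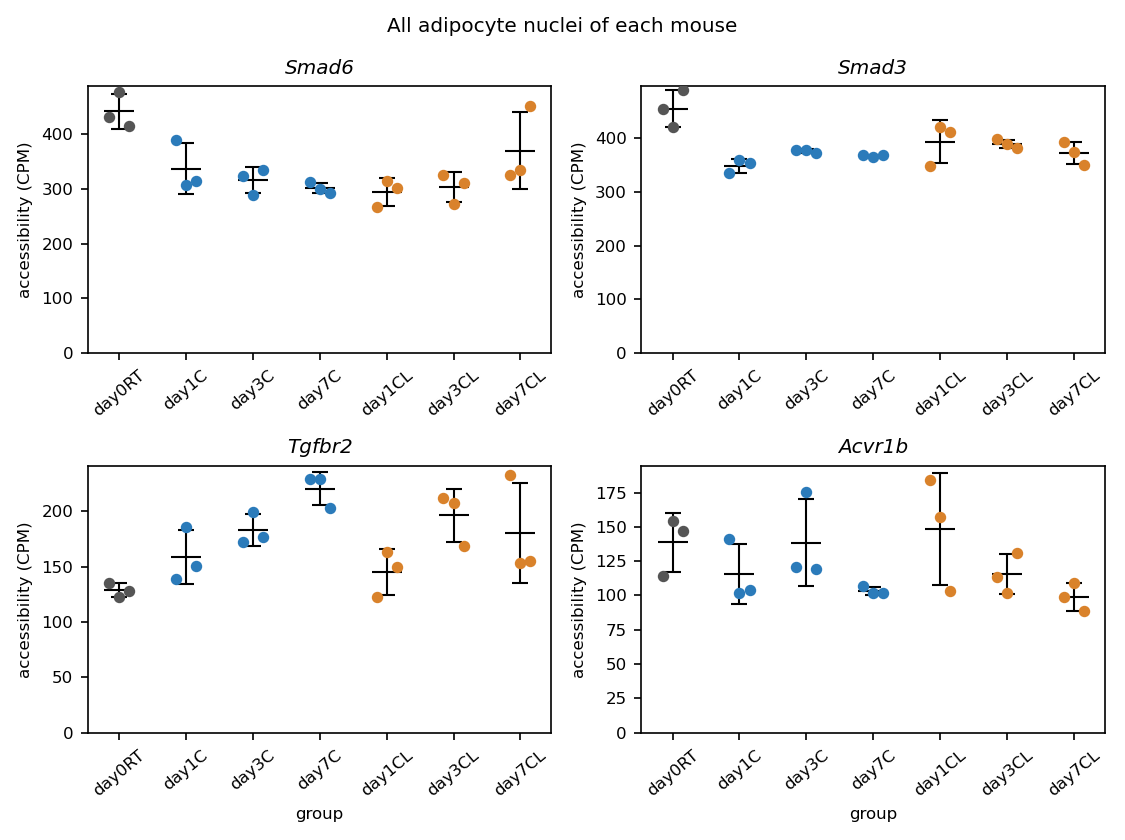
Points are the level in CPM in all adipocyte nuclei of each mouse, 3 per group, with the mean and SD in black, for 4 members. Smad6 and Smad3 lie lower and Tgfbr2 higher in most treated groups than at day0RT.

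Among all 14429 genes tested, all 3 mice lay under the day0RT mice in at least 5 of the 6 treated groups for 2.52%, and above them for 2.54%. Of the 37 members, Smad3 and Smad6 met the first rule and Tgfbr2 the second, so 2 and 1 of 37. In all 6 groups the shares were 0.735% and 0.7% of all genes, and of the members Smad3 lay under the day0RT mice in all 6. When cold and CL were compared on the same day, no member was called on day 1 (0.922% of all genes called), day 3 (1.46%) or day 7 (0.111%) by edgeR, with 3, 3 and 1 members at an unadjusted p under 0.05, and DESeq2 called none of those to which it gave an adjusted p, which it left out for 3 members on day 1 and 17 on day 3.

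Single peaks were tested as well. Of 78 member peaks tested between beige and white nuclei, 20 passed (26.9% of 24854 peaks called), 7 higher and 13 lower in beige (13% and 13.9% of all peaks). Of these, 13 were in introns (47 tested), 5 over the start of a gene (21 tested) and 2 in exons with a UTR (5 tested). Most peaks tested were intronic, so the counts by place do not set introns apart. The Acvr1 intron peak shown above, chr2:58456660-58457813, averaged 23.2 ± 11.7 CPM over beige libraries and 37.5 ± 8.03 CPM over white ones (SD, n = 19 and 21) and a log2 fold change of -0.76 ± 0.13 (SE, adjusted p = 2.02e-07 by edgeR). It was the only called peak with a mean of at least 20 counts in a library.

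The following peaks were chosen after their values were seen. Smad6 as a whole did not pass the test between beige and white nuclei, yet its intron peak chr9:63977042-63977507 was higher in beige by 0.90 ± 0.16 (SE, adjusted p = 4.02e-07 by edgeR). Smad3 held peaks of both directions, chr9:63666360-63667451 at 0.78 and chr9:63685144-63685945 at -0.53. Tgfbr3, the co-receptor betaglycan, likewise held chr5:107233321-107233691 at 1.26 and chr5:107283899-107284561 at -0.40.

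Across the 7 groups of adipocytes, 15 of 154 member peaks tested differed by edgeR (10.5% of 47835 peaks called). DESeq2 called 0 of them, with 13 at an unadjusted p under 0.05 and 15 without an adjusted p. The Tgfbr2 intron peak at chr9:116135950-116137372, centred 38699 bases into the gene, had 8.31, 8.37 and 16.4 CPM at day0RT and 27.8, 41.2 and 30.0 CPM at day7C. The same peak had 22.6, 24.0 and 23.8 CPM at day1C and 34.8, 26.2 and 19.3 CPM at day3CL (adjusted p = 0.000717 over the groups by edgeR). It lay above all day0RT mice in 4 treated groups and overlapped at day1CL and day7CL. This intron peak was named for passing the test over the same groups, and the share of all peaks placed so is not given here. The peak over the start of Tgfbr2 had 25.0 ± 1.6 CPM at day0RT and 30.4 ± 1.6 CPM at day7C (SD, n = 3). The intron peak was also higher in beige nuclei, by 0.50 ± 0.13 (SE, adjusted p = 0.000782 by edgeR).

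The Smad6 intron peak chr9:63972605-63973298, centred 49108 bases into the gene, had 46.5, 44.7 and 45.7 CPM at day0RT. It was lower in all 18 treated mice, with group means between 24.8 CPM at day3C and 33.05 CPM at day1C (adjusted p = 0.0122 by edgeR). The peak over the start of Acvr1b behaved in the same direction, from 34.9 ± 2.9 CPM at day0RT to 16.6 ± 2.6 CPM at day7CL (SD, n = 3), under the day0RT mice in all 6 groups (adjusted p = 0.0249 by edgeR). Both peaks were named for passing the test over these same groups, so their distance from day0RT is not separate support. The share of all peaks that lie outside the day0RT mice in this way is not given here. An intron peak of Tgfbr3 (chr5:107283899-107284561) and one of Smad3 (chr9:63716071-63716648) also differed over the groups (adjusted p = 0.00402 and 0.0351 by edgeR). When only peaks near gene starts were counted, edgeR called 0 of 32 members against day0RT in each group, with 1 to 5 at an unadjusted p under 0.05. The share of all genes called with these fewer counts is not given here.

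**Figure D4:**
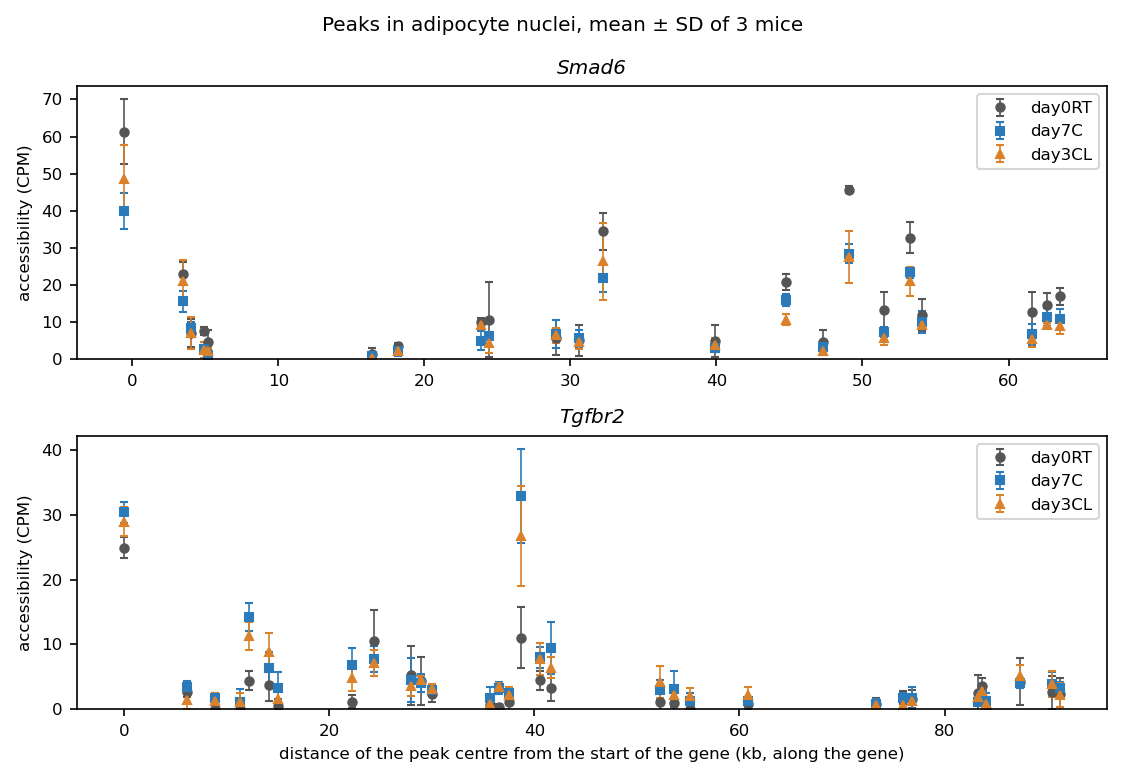
Each point is 1 peak of Smad6 (22 peaks) or Tgfbr2 (31 peaks), placed by the distance of its centre from the start of the gene, with the mean level in CPM and SD over the 3 mice of day0RT, day7C and day3CL. The Tgfbr2 peak at 38699 bases and the Smad6 peak at 49108 bases separate day0RT from both treatments. Both peaks were named for passing the test over the 7 groups.

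Other genes of the pathway were taken from a list of 89 antagonists, activators, co-receptors, other ligands, intracellular regulators and targets. Of 65 tested between beige and white nuclei, 12 were higher and 14 lower in beige, beside 13.6% and 15.2% of all genes. Col3a1, a collagen gene, fell by 1.28 on the log2 scale and Tgfb1i1, a focal adhesion protein gene, by 0.66, while Itgb6, an integrin that activates latent TGF-β, was higher by 0.93 and the BMP antagonist Chrdl2 by 0.61. In antagonists and extracellular modulators 6 of 15 were lower and 2 higher.

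In adipocytes against day0RT, 75 listed genes were tested. None was called at day1C by edgeR, with 11 at an unadjusted p under 0.05. At day3C 2 were higher and 1 lower (1.67% of all genes called in either direction), at day7C 3 and 1 (5.09%), at day1CL 0 and 2 (2.61%), at day3CL 1 and 3 (4.77%), and at day7CL 3 and 4 (7.81%). At day3CL the 4 were Itgb8, another integrin that activates TGF-β (1.14 ± 0.20), Pmepa1, which restrains TGF-β signalling (-0.82 ± 0.12), and Id1 and Id3, textbook targets of BMP signalling (-0.77 ± 0.22 and -0.69 ± 0.18, SE). Id3 had 83.8, 70.2 and 55.5 CPM at day0RT and 35.0, 36.7 and 47.0 CPM at day3CL. Pmepa1 had 442, 432 and 446 CPM at day0RT and 242.7, 246.5 and 248.5 CPM at day3CL. On day 1, Id3 was lower with CL than with cold by -1.11 ± 0.21 (SE, adjusted p = 0.00123 by edgeR), with 0, 50.6 and 37.8 CPM against 93.9, 62.0 and 83.7 CPM, and the 0 came from the shallow mouse.

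The third comparison set APC1 against APC2, the clusters annotated as adipocyte progenitors, whose markers differed as described above. Of 11 members tested, 3 were higher in APC1 and 4 in APC2, which is 63.6% beside 62.2% of 1687 genes called (30.8% higher and 31.5% lower in APC1). These p-values too rest on counts that made the clusters. Bmp1, which is a procollagen-cleaving protease and not a BMP ligand, had 130 ± 70.4 CPM in APC1 and 52.4 ± 29.9 CPM in APC2 (SD, n = 20 and 19) and was higher in APC1 in 18 of 18 mice (log2 0.91 ± 0.18 SE, adjusted p = 1.38e-06 by edgeR). Bmp6 was higher by 0.45, in 13 of 18 mice, and lost its call without a filter (0.39, adjusted p = 0.0527 by edgeR) and with at least 30 nuclei (0.50, 0.0953). Tgfbr3 was higher by 0.35, in 12 of 18 mice, and lost its call with the mouse as a block (0.18, adjusted p = 0.163 by edgeR) and without a filter (0.24, 0.13).

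Higher in APC2 were Smad1, Smad6, Acvr1b and Acvr1. Smad1 had 116 ± 78.2 CPM in APC1 and 216 ± 46.1 CPM in APC2 (SD), a log2 fold change of -0.74 ± 0.14 (SE, adjusted p = 3.71e-07 by edgeR), and Smad6 gave -0.72 ± 0.13 (adjusted p = 8.48e-08), each in 16 of 18 mice. Acvr1b and Acvr1 gave -0.47 and -0.41, and Acvr1 lost its call with nuclei of at least 2000 counts (-0.23, adjusted p = 0.313 by edgeR). Among the 89 other pathway genes, 19 were tested, with 10 higher and 3 lower in APC1, beside 30.8% and 31.5% of all genes. Bmper, a BMP-binding protein gene, was higher by 1.17, Nedd4l, a ubiquitin ligase gene, by 0.87, and Crim1 and Ltbp2 were lower by -1.03 and -1.01.

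Across all 12 clusters, levels were compared as CPM per kb of peak, as a description only, since the clusters were made from these counts. Acvr1c, the receptor ALK7 of fat cells, had 28.4 ± 2.5 CPM per kb in white and 28.9 ± 4.8 in beige nuclei (SD over mice), against 7.495 ± 4.28 in APC2, the next cluster. Gdf5, a BMP-like ligand, had 23.3 ± 15.3 in beige and 19.7 ± 3.4 in white nuclei and 6.66 ± 10.4 in VSMC, the next. Bmp8b was 9.63 times and Smad2 1.98 times as high in beige nuclei as in the next cluster outside the adipocytes. Smad6 was the member with the highest CPM per kb in both adipocyte clusters, at 31.3 ± 5.3 in white and 33.1 ± 9.0 in beige nuclei.

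Other clusters had leading members of their own. Bmp1 (45.1 ± 24.4 CPM per kb), Tgfb3 (36.9 ± 23.9), Bmp6, Bmp2, Bmp8a, Gdf10 and Gdf2 were highest in APC1 and Bmp4 in APC2, each at least 1.5 times the next cluster of another class. Gdf10 (27.45 ± 28.07, 30 counts in all), Gdf2 (29.32 ± 37.7, 35 counts) and Bmp4 (32.3 ± 22.5, 40 counts) rested on few counts with a wide spread. So did Bmp8a (27.57 ± 21.96, 49 counts) and Bmp2 (27.55 ± 23.89, 56 counts). Acvr2b (43.3 ± 19.6), Bmpr1a (37.0 ± 4.9), Bmpr1b and Inhbe (28.22 ± 27.74, 27 counts in all) led in the cluster annotated VSMC, which carried skeletal muscle markers. Levels in VSMC came from 10 libraries in 5 groups, with no day0RT or day1C mouse among them. Gdf3 led in APC2, Bmp5 and Gdf7 in dendritic cells and Gdf9 and Inhbc in macrophages on 12 to 23 counts in all, too few to rank. Gdf15 was among the 3 highest in APC1, B cells, Cd8, macrophages and VEC, and Tgfbr1 in T cells and VEC.

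Tgfb1 was among the 3 highest members in the lymphoid clusters, macrophages and VEC, and Smad7 in the lymphoid clusters and APC2. Tgfb1, the main TGF-β ligand of immune cells, had 53.1 ± 7.1 CPM per kb in B cells, 51.5 ± 12.01 in macrophages and 50.1 ± 11.9 in T cells. It had 48.4 ± 7.3 in Cd4, 46.8 ± 25.1 in VEC and 41.4 ± 10.6 in Cd8, against 16.7 ± 3.4 in white adipocytes (SD over mice). Differences among these clusters were not tested. Smad7 was highest in Cd8 at 59.0 ± 7.7 and Cd4 at 57.1 ± 8.3, followed by T cells at 43.8 ± 8.9, B cells at 34.0 ± 2.4 and APC2 at 32.9 ± 9.9, against 20.1 ± 8.0 in macrophages. Gdf11 was highest in B cells, at 32.05 ± 6.6. A sum over nuclei cannot tell more open chromatin in each nucleus from more nuclei open.

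**Figure D5:**
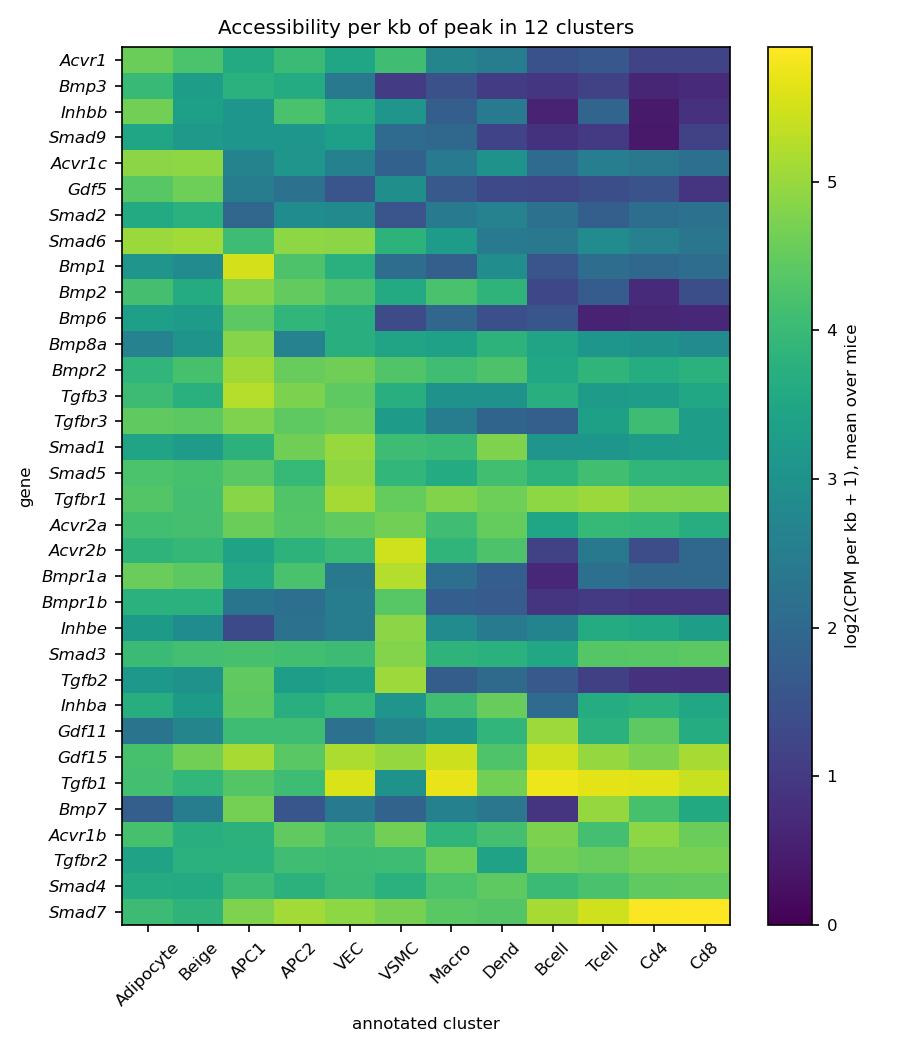
Color gives log2(CPM per kb of peak + 1), the mean over mice, for the 34 members with at least 500 counts in all, with 12 clusters as columns and genes ordered by the cluster where they are highest. Acvr1c is bright in both adipocyte columns, Tgfb1 and Smad7 in the lymphoid columns and Acvr2b in VSMC.

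In the 8 clusters other than adipocytes that could be fitted over the 7 groups, 1 pair of member and cluster was called, Acvr1 in B cells (adjusted p = 0.0381 by edgeR, beside 2.08% of 11502 genes). Over the other 7 clusters the share of all genes called was 0% in APC1 and macrophages, 0.0991% in APC2, 0.0567% in dendritic cells, 0.0172% in T cells, 0.0624% in Cd4 and 0.125% in Cd8. The mean of Acvr1 in B cells ran from 19.8 ± 1.2 CPM at day7C to 60.0 ± 27.8 CPM at day1CL (SD, n = 3). The third day1CL mouse had 91.5 CPM, in a shallow library of 66 nuclei and 50392 counts over all peaks. The call was lost without that mouse, in 8 of the 21 refits that each left out 1 mouse, and by DESeq2, which called 0 of 21 members in B cells, with 2 at an unadjusted p under 0.05. VEC and VSMC could not be fitted, since day0RT had too few libraries of them with 10 nuclei.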

How the data were processed

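Nuclei of all mice were sequenced together in 4 lanes. Groups, mice and cluster names were taken from the deposited annotation of the nuclei. The authors aligned reads to mm10 with Bowtie2, filtered them with SAMtools, called peaks with MACS2 and clustered nuclei in Signac. The deposited values are counts per peak and nucleus limited to 0 or 1, with 189598 peaks and 32552 nuclei.

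Counts were summed per mouse and cluster, over peaks from 2000 bases upstream of a GENCODE vM21 gene to its end. Of all peaks, 3.43% lay on 2 or more genes. Libraries had at least 10 nuclei. The test for genes and peaks was the quasi-likelihood test of edgeR 4.0.16 with TMM scaling and the filterByExpr filter in R 4.3.3, with p-values adjusted over all features tested and a threshold of 0.05. Mice held 1340376 to 6916698 counts, and the number of nuclei limits the precision. Replicates are mice.

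Named were members past the threshold, up to 6 of the largest changes in each direction in full, and peaks with a mean of at least 20 counts. Members and lists were chosen with earlier results of these data known. DESeq2 1.42.0, other filters, scalings, peak sets and nuclei, a replicate block and refits without each mouse were the alternatives. Fits were tested on simulated data. Replicate numbers were taken as names of mice and not as pairs. The sequence of 1 further peak is not reported here.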

Additional observations from a re-analysis of the deposited data

Results flagged for a closer look

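Tgfb2 in the nuclei annotated VSMC had 1 of 10 mice far from the others, at 395.8 CPM, where the next mouse had 149.6 CPM, the median was 95.3 CPM and the lowest 0 CPM. The cluster held 59 Tgfb2 counts in all. The rule marks about 1 in 20 groups of normally distributed values by chance, a rate that need not hold for counts this sparse. In this way 7 members were examined.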

How the results depend on the processing

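Of 1217 values of single genes under alternatives, 1086 kept their direction and their side of the threshold, 127 lost the call, 3 gained one and 1 reversed, Smad7 between beige and white nuclei (0.0071 with promoter peaks only). With promoter peaks only, the members called were 5 between beige and white nuclei and 0 against day0RT in each of the 6 treated groups and 0 in the other clusters. The shares of all genes called with these peaks are not given here. At day1C the count was also 0 without a filter, with the replicate block, with nuclei of at least 2000 counts, in white nuclei and with only the 2 groups, with 3 or 4 members at an unadjusted p under 0.05. At day3C it was 0 in white nuclei and 2 with only the 2 groups, and at day7CL 1 with nuclei of at least 2000 counts. The 1 pair of member and other cluster became 0 under DESeq2, with nuclei of at least 2000 counts and with peaks on no other gene. Between APC1 and APC2 the count was 11 without a filter. Between beige and white nuclei, 117 member peaks were called without a filter and 44 with the mouse as a block. Over the groups, 0 peaks were called by DESeq2 and 7 without a filter. The shares of all genes and peaks called under these settings, or without 1 mouse, are not given here. A change in these counts is therefore not read as a result about the members. The causes were not tested.

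Leaving out 1 mouse gave 8 to 15 members between beige and white nuclei, 6 to 8 between APC1 and APC2, 0 to 1 at day1C, 0 to 2 at day3C, 2 to 3 at day7C, 0 to 1 at day1CL, 1 to 2 at day3CL, 0 to 3 at day7CL, 0 to 0 for CL against cold, 0 to 1 pairs in other clusters, 9 to 27 peaks between beige and white nuclei and 5 to 16 peaks over the groups. The 0 at day7CL came without the third day0RT or the first day7CL mouse. Deviations in adipocytes had a median correlation of 0.0024 between same-numbered mice (-0.125 to 0.134, 63 pairs) and 0.0019 between other mice (126 pairs). Adipocyte sums as shallow as 48868 counts can hide a shared deviation, so a batch behind the number was not tested. The replicate block ended the Smad3 calls at day1C (adjusted p = 0.0561) and day7CL (0.0647) and no other call against day0RT. No value was obtained for VEC and VSMC over the groups, APC2 with nuclei of at least 2000 counts, APC1 and APC2 over the groups with at least 30 nuclei, or APC1 against APC2 with promoter peaks only.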
